A study of Mus musculus with 40 samples.

Results

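The livers of Nrf2-null and wild-type (Wt) mice that had all received CDDO-Im at 30 µmol/kg were compared, as 4 Nrf2-null and 4 Wt arrays out of the 40 arrays of the series. The arrays were taken by their sample titles, as a pair of groups known to have similar clock gene levels and nearby animal numbers, and 9695 genes, each represented by 1 probe set, were tested. All animals were male C57BL/6J mice of 12 weeks on AIN-76A diet, and every mouse was gavaged 3 times over 5 days and euthanized 24 h after the last dose. The null mice (Nrf2-/-) lack the factor in every tissue and came, like the Wt mice, from crosses of heterozygous animals. The other 32 arrays, used only for comparison, came from 4 mice of each genotype given vehicle (Cremophor-EL, DMSO and PBS), 300 µmol/kg D3T, or CDDO-Im at 3 or 10 µmol/kg. Both genotypes of the comparison therefore carried the compound, and what separated them was the Nrf2 allele and whatever else differed between those animals. Values are log2 intensities from GCRMA, a gene is called when its adjusted p is under 0.05 (limma, Benjamini-Hochberg over all genes), and a difference is Nrf2-null minus Wt. RNA came from whole snap-frozen liver, so that fewer cells of a type and less RNA per cell cannot be told apart.

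Nrf2, the product of Nfe2l2, is a transcription factor that is held in the cytosol and marked for degradation by Keap1. Electrophiles such as CDDO-Im, an imidazolide of a synthetic oleanane triterpenoid, modify cysteines of Keap1, after which Nrf2 accumulates, pairs with a small Maf protein and binds antioxidant response elements. In liver its best known targets encode enzymes that reduce quinones, conjugate electrophiles with glutathione or glucuronic acid, export the conjugates and supply glutathione and NADPH.

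Some mice stood apart. Nrf2-null replicate 3 differed from the other 3 null mice in some genes that differ between male and female liver, such as Serpina12 and Cyp7b1, and not in others, such as Moxd1. It also differed in genes on neither sex list, such as Tcf24 and Dct. The values are given further on. Nrf2-null replicates 1 and 4 carried high values of pancreatic elastases, also given below. The clock score, the mean of 9 evening genes minus that of 5 morning genes, was -2.45 ± 0.12 (SD, n = 4) in Wt and -3.20 ± 0.19 in Nrf2-null mice. The scores ran from -2.63 to -2.38 in Wt and from -3.37 to -3.01 in Nrf2-null mice, without overlap. The groups were chosen for similar clock levels. These scores, and the absence of calls among clock genes, are therefore a description and no test of clock phase. No clock gene of either list was called, with Nr1d2 at -0.33 ± 0.45 (SE), Tef at 0.09 ± 0.44, Clock at 0.11 ± 0.18 and Nfil3 at -0.25 ± 0.41. Among the mice used for comparison, Nrf2-null vehicle replicate 1 stood at 2.92 against -3.55 to -2.77 in the other 3 of its group, and Wt mice at 10 µmol/kg at 2.07 to 4.03. In the labels the animal numbers of the 4 null mice were all below those of the 4 Wt mice.

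Nfe2l2 itself was read by 2 probe sets that went opposite ways. On the probe set used in the fit its log2 value was 11.13, 10.94, 11.08 and 10.96 in the 4 Wt mice and 2.78, 3.09, 2.85 and 2.78 in the 4 Nrf2-null mice. The difference of -8.15 ± 0.16 (SE) had an adjusted p of 1.44e-29 (limma, Benjamini-Hochberg), and an exact two-sided permutation test gave 0.0286, the smallest p that 4 against 4 mice can reach. On the second probe set, which was dimmer in Wt mice, the values were 5.52, 5.03, 5.59 and 4.49 in Wt and 6.59, 7.14, 6.44 and 6.46 in Nrf2-null mice, higher in the null group by 1.5 with the same exact p. Which part of the transcript each probe set reads, relative to the disrupted part of the gene, could not be read from the sources. The brighter probe set thus goes with the label of every mouse, and the second cannot be read as a check. Of the 20 nearest tested neighbours of Nfe2l2 in gene order 11 were called, where 38.5% of all genes were, and Rbm45 was called at all 5 treatments.

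Across all genes, 3736 of 9695 (38.5%) differed between the genotypes, 3070 (31.7%) higher and 666 (6.87%) lower in Nrf2-null liver. The median difference of all genes was 0.19 on the log2 scale, and the array medians as deposited were 7.50 to 7.65 in Wt and 7.75 to 7.84 in null mice. When every array was centred on its own median, 1149 genes (11.9%) were higher and 1781 (18.4%) lower, and the median difference was -0.04. After quantile normalization 1782 genes were higher and 1137 lower, with a median difference of 0.05. The split between higher and lower thus depended on the scaling, whereas 1148 genes (11.8%) were higher and 659 (6.80%) were lower as deposited, after centring and after quantile normalization alike. Counts of lists are as deposited unless said otherwise, with those after centring or under all 3 scalings beside them, and differences should be read against the shift of 0.19. The 2 groups did not overlap at all for 3757 genes (38.8%), of which 3010 were also called. A difference of at least a doubling (log2 of 1) was called for 314 genes that were higher and 150 that were lower, and of at least 4-fold (log2 of 2) for 47 and 49.

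The largest falls among called genes whose groups did not overlap were in detoxification and acute phase genes, apart from Moxd1 and 9130409I23Rik, which are taken up later. Nqo1, the quinone reductase that is the usual readout of Nrf2 activity, was 9.34, 8.68, 9.27 and 7.97 in the 4 Wt mice and 3.22, 3.74, 3.17 and 3.28 in the 4 Nrf2-null mice. Every null mouse lay more than 4 log2 units below every Wt mouse, and the difference was -5.46 ± 0.32 (SE). The null values lay below the minimum of log2 4 set for expression, so the 44.1-fold difference is a rough size. Cbr3, a carbonyl reductase, was 10.79, 10.42, 10.91 and 9.41 in the 4 Wt mice and 4.01, 4.02, 4.00 and 4.21 in the 4 Nrf2-null mice. The null values sat at about that minimum, and the 80.2-fold difference (-6.33 ± 0.41, adjusted p = 7.41e-14) is rough in the same way. Its relative Cbr1 was 12.52, 12.11, 12.41 and 11.72 in the 4 Wt mice and 10.43, 10.84, 9.71 and 10.61 in the 4 Nrf2-null mice, a difference of -1.79 ± 0.25. The carboxylesterase Ces1g was 13.70 ± 0.08 (SD, n = 4) in Wt and 8.37 ± 0.11 in null mice, and microsomal epoxide hydrolase, Ephx1, was 13.90 ± 0.03 and 11.69 ± 0.26. Of the 25 tested members of the carbonyl, quinone and epoxide list 14 were lower and 3 higher in Nrf2-null liver, with a median of -0.44 against 0.19 over all genes. After centring 15 were lower and none higher.

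**Figure D1:**
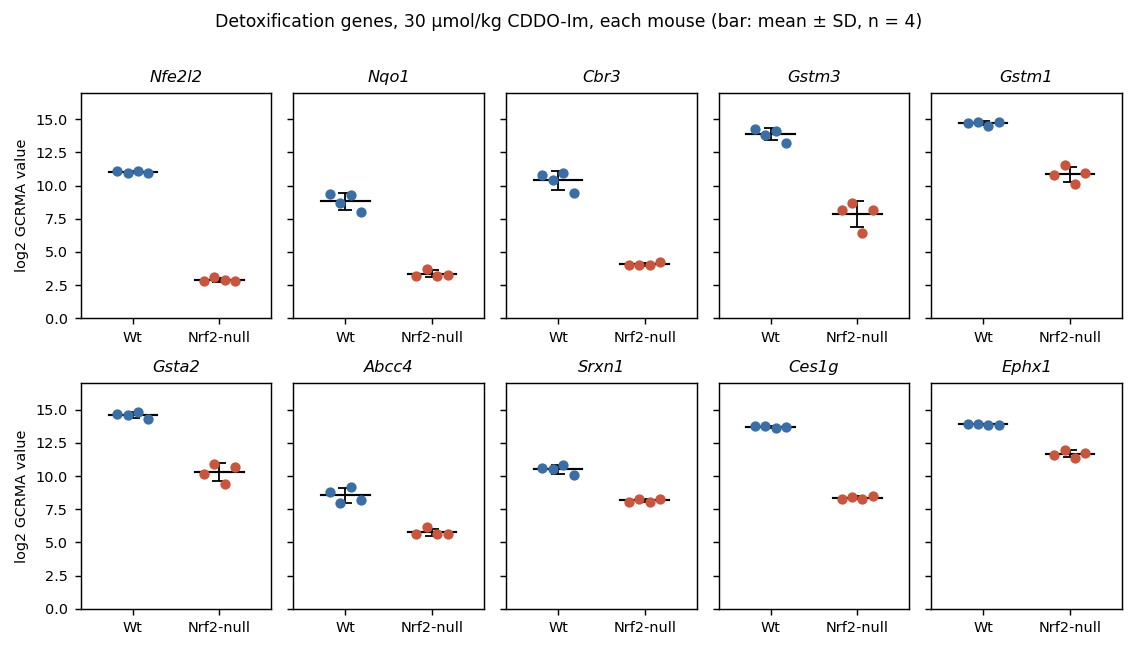
Log2 GCRMA value of 10 genes in each of the 4 Wt (blue) and 4 Nrf2-null (red) mice given 30 µmol/kg CDDO-Im, with the mean and SD of each group in black. In all 10 genes the highest null mouse lies below the lowest Wt mouse, and Nfe2l2, Nqo1 and Cbr3 reach the bottom of the range.

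The glutathione transferases, which attach glutathione to electrophiles, were lower for about as many members as were not. Gstm3 was 14.26, 13.81, 14.12 and 13.23 in the 4 Wt mice and 8.15, 8.67, 6.42 and 8.18 in the 4 Nrf2-null mice, a difference of -6.00 ± 0.35 (SE, adjusted p = 6.68e-15). Gstm1 was 14.72, 14.80, 14.50 and 14.83 in the 4 Wt mice and 10.76, 11.52, 10.14 and 10.93 in the 4 Nrf2-null mice, and Gsta2 was 14.68, 14.59, 14.81 and 14.32 in the 4 Wt mice and 10.13, 10.92, 9.39 and 10.71 in the 4 Nrf2-null mice. Null replicate 3 had the lowest value of the 8 mice for each of the 3. Gstm4, another mu-class enzyme, differed by -2.71 ± 0.25. In all, 10 of 19 tested transferases were lower and 3 higher (median -0.33), and after centring 12 were lower and none higher. The mu-class genes are close in sequence, and probe sets of one may read another.

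Genes for glutathione itself and for thioredoxin moved both ways, and did so on every scaling. Srxn1, sulfiredoxin, which restores oxidized peroxiredoxins, was 10.60, 10.54, 10.87 and 10.08 in the 4 Wt mice and 8.08, 8.27, 8.02 and 8.28 in the 4 Nrf2-null mice (-2.36 ± 0.21). Cytosolic thioredoxin reductase, Txnrd1, was 11.25 ± 0.09 in Wt and 10.00 ± 0.05 in Nrf2-null liver. The other 2 reductases went the other way on the probe sets used. The mitochondrial Txnrd2 was higher by 1.10 ± 0.15 and Txnrd3 by 1.16 ± 0.25, and neither pair of groups overlapped. A second probe set of Txnrd3 gave 0.06 ± 0.14 and was not called. For Txnrd2 a probe set at 0.24 ± 0.15 was not called either, while the others gave 0.81 ± 0.19 and 0.77 ± 0.19. Overall 9 of the 20 tested genes of glutathione synthesis and the thioredoxin system were lower and 4 higher, and the same 9 and 4 were called under all 3 scalings, with 12 lower after centring alone.

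Exporters of conjugates, the ABC transporters that move glutathione and glucuronide conjugates out of the hepatocyte, were lower or not called. Abcc4, a basolateral pump, was 8.83, 7.99, 9.18 and 8.22 in the 4 Wt mice and 5.61, 6.13, 5.62 and 5.66 in the 4 Nrf2-null mice. Abcc3, also basolateral, was 12.18 ± 0.09 in Wt and 9.12 ± 0.13 in null mice, a difference of -3.06 ± 0.22. Abcc2, the canalicular pump, differed by -1.06 ± 0.11. Of 10 tested exporters 7 were lower and none higher, before and after centring. Abcb1b, near the bottom of the range, was called (-0.96 ± 0.36, adjusted p = 0.0351), but it lost the call when any of 6 of the 8 mice was left out.

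In glucuronidation and sulfation 12 of 20 tested genes were lower and 2 higher, with the lowest median of these groups apart from the exporters, at -0.75, and after centring 13 were lower and 1 higher. Ugt2b35, a UDP-glucuronosyltransferase, was 14.20 ± 0.12 in Wt and 11.52 ± 0.21 in null mice. Entpd5, a nucleoside diphosphatase of the endoplasmic reticulum, was 12.86 ± 0.19 and 10.60 ± 0.21, and Ugt2b37 differed by -2.09 ± 0.53. The exception of largest size was Sult1c2, a sulfotransferase, which was higher in all 4 null mice (6.08, 5.72, 6.03 and 5.98) than in any Wt mouse (4.32, 3.22, 3.83 and 3.14). Among enzymes that supply NADPH, malic enzyme Me1 (-1.24 ± 0.27), transketolase Tkt (-1.18 ± 0.17) and phosphogluconate dehydrogenase Pgd (-1.06 ± 0.20) were lower, while ribose-5-phosphate isomerase Rpia was higher (1.09 ± 0.27). That list held 5 lower and 4 higher of 11 tested, and 5 and 2 under all 3 scalings.

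Among regulators and partners of Nrf2, Keap1 was 9.38 ± 0.07 in Wt and 9.03 ± 0.14 in null mice, a difference of -0.35 ± 0.09 in which the groups did not overlap. Mafk, a small Maf partner, differed by -0.55 ± 0.17 and lost its call without null replicate 4. Pgam5, a mitochondrial phosphatase that binds Keap1, was called higher as deposited (0.37 ± 0.13) and lost that call after centring (0.14). The list held 3 lower and 1 higher of 16 tested, Nfe2l2 included, and after centring 6 lower and none higher.

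Promoter sequences were set beside these values because the detoxification genes fell together and are known for antioxidant response elements. The core TGACNNNGC was searched on both strands of the window from 250 bases before to 50 bases after each start in RefSeq (GRCm38.p6). It was present in 12.4% of the 32851 promoters of the table. Of genes with a promoter in it, 22.3% of the 534 that were lower in Nrf2-null liver held it in at least 1 promoter, against 16% of the 2524 that were higher and 17.1% of all 7950 tested. These shares are given as a description with no test. Of the 98 named genes with a promoter there, 20 held the core, and Nqo1, Gstm3, Gsta2 and Cbr3 were not among those, so these letters are not in that window for them. The bases around the core are shown for 4 promoters of genes whose values are described here, 5′ to 3′ on the strand of the gene, with the core in capitals (read on the opposite strand in Txnrd1). The cores begin 92, 98, 23 and 240 bases before the start.
Txnrd1, chr10:82859089-82859147, plus strand: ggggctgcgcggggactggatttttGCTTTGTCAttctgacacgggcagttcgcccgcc
Abcc2, chr19:43782185-43782243, plus strand: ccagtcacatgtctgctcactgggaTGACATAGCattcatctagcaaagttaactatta
Abcc4, chr14:118676932-118676979, minus strand: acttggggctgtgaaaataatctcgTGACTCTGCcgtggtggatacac
Nfe2l2, chr2:75704870-75704913, minus strand: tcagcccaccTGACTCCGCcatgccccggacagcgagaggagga
The first 3 belong to genes that were lower in the null mice, and the last is that of the targeted gene. The core was also in promoters of named genes that were higher, namely Acot3, Ehhadh, Fbp1, Hsd11b1, Cdk4 and Igfbp2, which are not shown. Other lower genes, such as Srxn1 and Me1, and another promoter of Abcc4 held it as well. A match of these letters does not show that a factor binds there.

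The acute phase genes, secreted by hepatocytes during inflammation, were the other group with falls of this size. Lcn2, the siderophore-binding lipocalin, was 10.38, 11.86, 12.09 and 12.13 in the 4 Wt mice and 4.89, 5.64, 4.81 and 5.01 in the 4 Nrf2-null mice. Saa2, a serum amyloid A, was 14.09, 14.83, 14.87 and 15.79 in the 4 Wt mice and 8.38, 8.99, 8.23 and 8.93 in the 4 Nrf2-null mice, and Saa1 was 15.09, 15.48, 15.51 and 15.91 in the 4 Wt mice and 10.38, 11.08, 10.51 and 10.81 in the 4 Nrf2-null mice. Orm2, an orosomucoid, was 12.04 ± 0.52 in Wt and 7.56 ± 0.23 in null mice. No Wt mouse overlapped a null mouse in any of the 4, the differences were -6.53 ± 1.35, -6.26 ± 1.22, -4.80 ± 0.97 and -4.48 ± 0.98, and the adjusted p values were 0.000353, 0.000191, 0.000282 and 0.000641 (limma). These transcripts varied widely between mice in other groups, and at 3 µmol/kg Lcn2 ran from 6.96 to 13.44 in Wt and from 5.79 to 11.27 in Nrf2-null mice. Of 21 tested acute phase genes 8 were lower and none higher, and 11 were lower after centring. Markers of neutrophils, which also make Lcn2, gave only S100a8 (-1.38 ± 0.76) and S100a9 (-0.98 ± 0.71) above the minimum and neither was called, the other 8 listed being untested. Their part in the result was not tested.

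Chaperones of the endoplasmic reticulum were lower too. Creld2 was 11.51, 12.55, 12.88 and 11.46 in the 4 Wt mice and 10.21, 9.26, 10.30 and 10.79 in the 4 Nrf2-null mice, a difference of -1.96 ± 0.53. Syvn1, a ubiquitin ligase of this compartment, differed by -1.18 ± 0.35, and Sdf2l1 and Manf by -1.19 ± 0.44 and -1.02 ± 0.38. Of 22 tested genes 10 were lower and none higher (median -0.42), 17 after centring, and between 7 and 11 were lower when single mice were left out. The calls of Sdf2l1 and Manf were lost without Wt replicate 2 or 3, among others, while those of Creld2 and Syvn1 were kept without any one mouse. In the integrated stress response list 5 of 20 tested genes were lower and 3 higher, and after centring 7 and 2. Asns, asparagine synthetase, was 7.84, 5.71, 6.61 and 8.17 in the 4 Wt mice and 4.33, 4.89, 3.27 and 5.67 in the 4 Nrf2-null mice and lost its call without Wt replicate 4 or null replicate 3. Ddit4, an inhibitor of mTORC1 signaling, differed by -1.49 ± 0.39, and the groups did not overlap. Of 18 cytosolic heat shock genes only Hspa8 (-1.07 ± 0.19) and Hsp90aa1 (-0.71 ± 0.24) were called, both lower, and after centring 9 were. The brighter probe set gives this fall of Hspa8, and the probe set of widest spread gave 1.52.

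**Figure D2:**
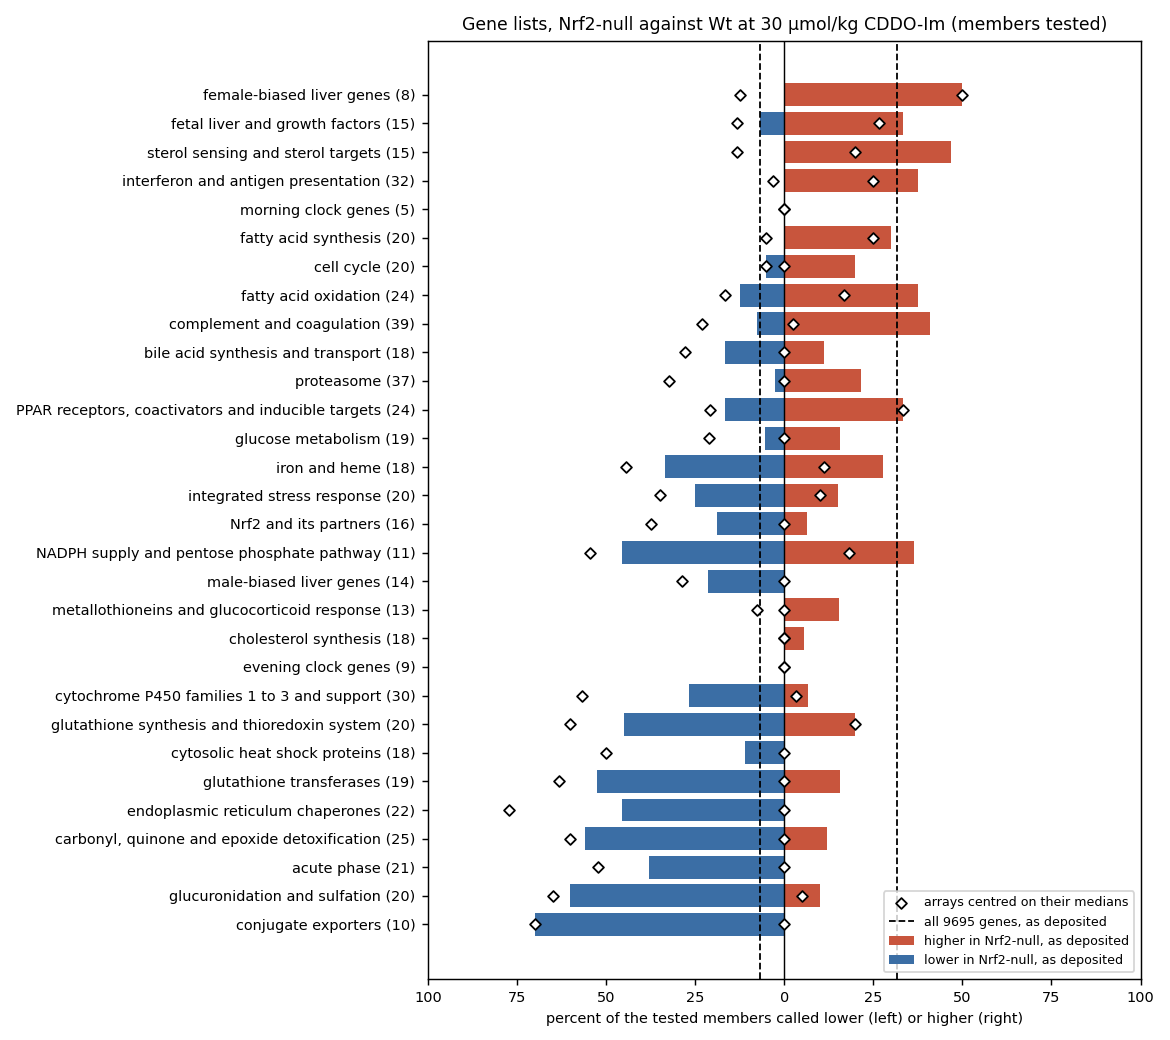
Share of the tested members of each of 30 gene lists that were called higher (right, red) or lower (left, blue) in Nrf2-null liver at 30 µmol/kg CDDO-Im, with the number tested in brackets and the shares after centring as diamonds. Dashed lines mark all genes, 31.7% higher and 6.87% lower, and the bar of the conjugate exporters, 7 lower of 10, extends farthest to the left.

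In the lipid lists single genes were higher, while the shares of members called higher lay near the 31.7% of all genes or below it, apart from the sterol sensing list. Srebf1, the sterol regulatory factor that drives fatty acid synthesis, was 11.90, 11.36, 10.82 and 11 in the 4 Wt mice and 12.83, 12.74, 12.79 and 12.93 in the 4 Nrf2-null mice, a difference of 1.55 ± 0.29. Its escort protein Scap was higher by 0.84 ± 0.15, and Mylip, which degrades the LDL receptor, by 0.90 ± 0.25. The oxysterol receptor Nr1h3 was called as deposited (0.63 ± 0.18) and not after centring. The sterol sensing list held 7 higher and none lower of 15, and 3 higher under all 3 scalings. Among enzymes that lengthen and desaturate fatty acids, Elovl5 (1.08 ± 0.22), Fads1 (1.03 ± 0.24), Elovl2 (0.99 ± 0.17) and Fads2 (0.90 ± 0.24) were higher with no overlap of the groups. Of 20 tested fatty acid synthesis genes 6 (30%) were higher and none lower, and 5 were higher under all 3 scalings. The enzymes of cholesterol synthesis, in contrast, gave 1 call in 18 (Ebp, 0.36 ± 0.11), which was lost on centring (0.13). Lss was -0.11 ± 0.36 and Cyp51 -0.53 ± 0.36, neither called, although Cyp51 was called when only the 8 arrays entered the fit or when arrays were weighted.

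Targets of PPARα, the receptor that governs fatty acid oxidation, held several of the larger rises. Cyp4a14, a fatty acid omega-hydroxylase, was 8.32, 7.82, 9.38 and 7.90 in the 4 Wt mice and 13.39, 13.56, 13.74 and 13.34 in the 4 Nrf2-null mice, 35.5-fold higher (5.15 ± 0.50, adjusted p = 3.31e-09). Cyp4a31 was 4.70 ± 0.52 in Wt and 6.99 ± 0.55 in null mice. Abcd2, a peroxisomal transporter of very long chain fatty acids, was 6.15, 4.47, 6.45 and 5.20 in the 4 Wt mice and 8.55, 9.43, 7.09 and 9.24 in the 4 Nrf2-null mice, and Acot3, a peroxisomal acyl-CoA thioesterase, was 4.20, 2.79, 3.58 and 4.19 in the 4 Wt mice and 7.06, 8.80, 4.65 and 8.16 in the 4 Nrf2-null mice. In these 2 genes null replicate 3 had the lowest value of its group. Of 24 tested members 8 (33.3%) were higher and 4 lower, the same counts under all 3 scalings. Among the lower was Pparg, another receptor on the list (-1.31), which was called lower in all 5 genotype comparisons. With vehicle 8 members were higher and 2 lower, where 10.8% of all genes were called. The receptor and its partners did not follow: Ppara (-0.23 ± 0.22), Lpin1 (-0.80 ± 0.48), Klf13 (0.07 ± 0.24) and Ppargc1b (0.73 ± 0.37) were not called. For Ppargc1b, a coactivator, the groups did not overlap, and it was called when only the 8 arrays entered the fit, when arrays were weighted or when the clock score was a covariate.

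In mitochondrial and peroxisomal oxidation 9 of 24 tested genes (37.5%) were higher and 3 lower, and 4 and 3 under all 3 scalings. The bifunctional peroxisomal enzyme Ehhadh was higher (1.13 ± 0.26) and the other one, Hsd17b4, lower (-0.59 ± 0.09), each without overlap, and Decr1, a mitochondrial reductase of unsaturated acyl-CoA, was higher (0.57 ± 0.14). Second probe sets of Hsd17b4 (-0.16 ± 0.10) and Decr1 (0.40 ± 0.26) were not called. Angptl8, a secreted inhibitor of lipoprotein lipase, was 7.65, 7.01, 6.67 and 7.55 in the 4 Wt mice and 11.02, 9.95, 8.85 and 10.77 in the 4 Nrf2-null mice. In bile acid synthesis and transport 3 of 18 genes were lower and 2 higher, after centring 5 and none, and Akr1d1 (-0.67 ± 0.14) and the uptake transporter Slco1b2 (-0.73 ± 0.19) were among the lower, while the bile acid receptor Nr1h4 was higher as deposited only (0.52 ± 0.15). In glucose metabolism Pfkfb3, which makes fructose-2,6-bisphosphate, was lower (-1.51 ± 0.49), and the rises of Gckr (0.45 ± 0.11), Ldha (0.31 ± 0.10) and Fbp1 (0.29 ± 0.07) did not outlast centring.

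Among cytochromes P450 and their regulators 8 of 30 tested genes were lower and 2 higher, and after centring 17 and 1. Nr1i3, the constitutive androstane receptor, was 9.85, 9.52, 9.38 and 9.74 in the 4 Wt mice and 6.76, 7.02, 7.84 and 6.50 in the 4 Nrf2-null mice, and Alas1, the first enzyme of heme synthesis, was 12.74 ± 0.32 in Wt and 10.29 ± 0.85 in null mice. Cyp2c54 was lower by 2.57-fold and Cyp2u1 higher by 2.78-fold. In the iron and heme list Blvrb, biliverdin reductase B, was 13.09 ± 0.07 and 11.19 ± 0.24. Hamp2, a paralog of the hepcidin gene Hamp, was 11, 11.62, 10.60 and 10.93 in the 4 Wt mice and 13.45, 13.71, 12.40 and 13.74 in the 4 Nrf2-null mice. Hamp itself was tested and is not described here. Id1, a target of BMP signaling, was 5.95, 5.33, 6.12 and 6.69 in the 4 Wt mice and 9.39, 10.74, 7.44 and 10.35 in the 4 Nrf2-null mice. Its relative Id3 was 10.06 ± 0.37 in Wt and 12.20 ± 0.59 in null mice. The transferrin receptor, Tfrc, differed by -1.24 ± 0.42 and lost its call without replicate 2 of either group. The list held 6 lower and 5 higher of 18, and 6 and 2 under all 3 scalings.

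Several genes of antigen presentation and the interferon response were higher in the null mice, in a list whose share of calls was near that of all genes. Class II gene H2-Ab1 was 6.67, 6.43, 7.03 and 6.78 in the 4 Wt mice and 8.78, 9.35, 7.66 and 9.49 in the 4 Nrf2-null mice, the chemokine Cxcl9 was 7.34, 7.65, 8.07 and 7.59 in the 4 Wt mice and 9.55, 10.57, 8.93 and 10.61 in the 4 Nrf2-null mice, and the interferon-induced Usp18 and Ifit2 were higher by 1.84 ± 0.36 and 1.81 ± 0.41. Of 32 tested members 12 were higher (37.5% of the list, against 31.7% of all genes) and none lower, 8 were higher under all 3 scalings, and 8 to 11 when single mice of the 8 were left out. Of the markers of other cells, 5 of 11 tested endothelial markers, 3 of 10 stellate markers and 3 of 5 lymphocyte markers were higher and none lower, beside 31.7% of all genes, and 2 of each list stayed so under all 3 scalings. The summed linear level of the lymphocyte markers was 1030 to 1470 in Nrf2-null and 402 to 515 in Wt mice, with most of it from Ptprc and Ighm. Ighm, the heavy chain of IgM, was 6.48, 5.00, 5.75 and 4.81 in the 4 Wt mice and 8.95, 7.64, 9.54 and 9.10 in the 4 Nrf2-null mice, whereas Cd3e and Cd8a, which define T cells, were not tested.

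Markers of Kupffer cells, the resident macrophages, divided. Marco, a scavenger receptor, was 5.55, 5.53, 6.75 and 6.24 in the 4 Wt mice and 2.27, 2.30, 2.37 and 4.32 in the 4 Nrf2-null mice, and Cd163 differed by -1.19 ± 0.33. In contrast Cd68 (1.65 ± 0.28), Timd4 (1.21 ± 0.40) and Lyz2 (0.83 ± 0.27) were higher, and Clec4f, which defines these cells, was not called (0.34 ± 0.30). In all 5 of 13 were higher (38.5%, near the 31.7% of all genes) and 2 lower (beside 6.87% of all genes), and 1 and 2 under all 3 scalings. Null replicates 1 to 3 lay below the minimum of log2 4 in Marco, so the size of its fall is rough. These genes were singled out after their values were seen. Among hepatocyte markers 3 of 10 were higher as deposited, none after centring, and Alb differed by 0.10 ± 0.05. The part of cell makeup in the results above was not tested.

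Pancreatic genes were high in single null mice. Cela1, an elastase that liver also expresses, was 9.02, 8.68, 8.82 and 8.95 in the 4 Wt mice and 12.27, 9.64, 11.06 and 14.03 in the 4 Nrf2-null mice. Cela2a was 3.32, 3.56, 3.48 and 3.56 in the 4 Wt mice and 12.05, 4.10, 3.09 and 14.44 in the 4 Nrf2-null mice, and Cela3b was 4.13, 4.53, 4.68 and 4.13 in the 4 Wt mice and 8.41, 4.13, 4.13 and 10.59 in the 4 Nrf2-null mice. Replicates 1 and 4 of the null group thus carried both of the latter, and replicates 2 and 3 lay at Wt level. The other 8 listed pancreatic genes, trypsinogens and carboxypeptidases included, were not tested. Nupr1, a stress gene that exocrine pancreas expresses strongly, ran with them at 3.15, 3.04, 3.23 and 3.17 in the 4 Wt mice and 5.72, 4.04, 3.19 and 6.70 in the 4 Nrf2-null mice, and its call (adjusted p = 0.00494) was lost when only the 8 arrays entered the fit.

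**Figure D3:**
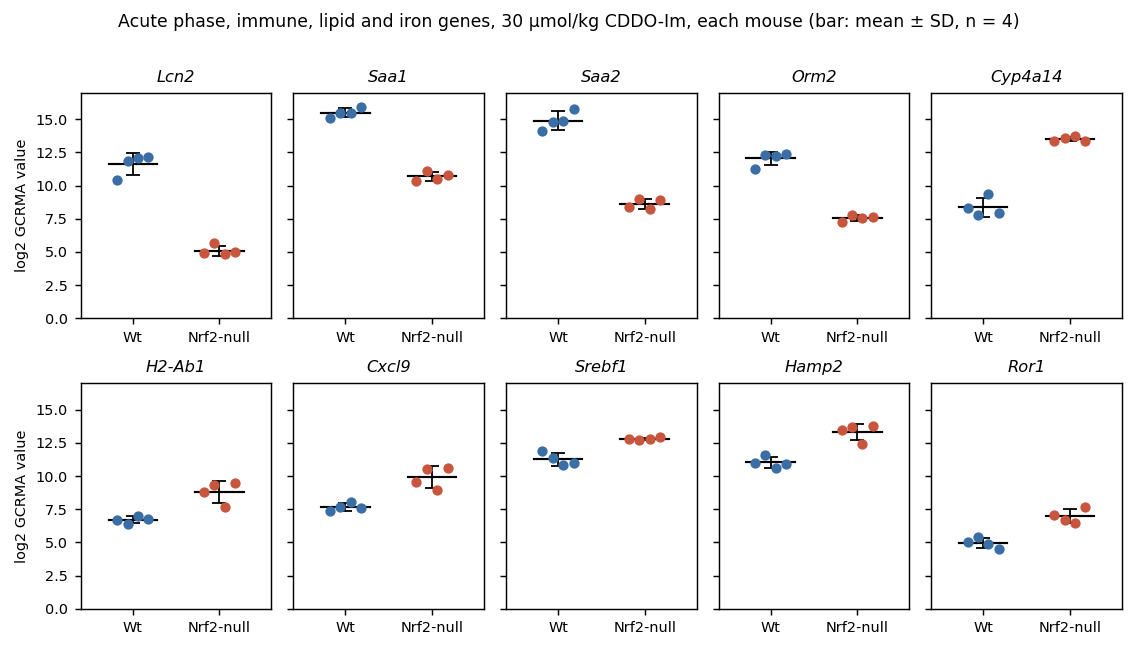
Log2 GCRMA value of 10 genes in each of the 4 Wt (blue) and 4 Nrf2-null (red) mice given 30 µmol/kg CDDO-Im, with the mean and SD of each group in black. The 4 acute phase genes fall, and the other 6 genes rise, with no overlap between the genotypes.

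Genes that differ between male and female liver are described because null replicate 3 stood apart in several of them, as it did in genes on neither list. The male-biased Moxd1 was 9.67, 9.18, 9.08 and 10.19 in the 4 Wt mice and 2.15, 2.15, 2.15 and 2.15 in the 4 Nrf2-null mice, the null mice close to the bottom of the range. It stood there too in all 8 Wt mice given D3T or 10 µmol/kg and in 1 Wt mouse each with vehicle and at 3 µmol/kg, where the others lay between 7.94 and 9.28. Serpina12, also male-biased, was 12.13, 12.25, 11.88 and 12.07 in the 4 Wt mice and 8.67, 6.70, 12.49 and 7.07 in the 4 Nrf2-null mice, so that replicate 3 lay above every Wt mouse while the other null mice lay far below. Cyp7b1, a hydroxylase of oxysterols, was 14.70, 14.99, 14.94 and 15.16 in the 4 Wt mice and 13.61, 12.81, 14.80 and 13.13 in the 4 Nrf2-null mice, with replicate 3 again at the Wt level. The female-biased Cyp17a1 was 4.30, 3.20, 3.09 and 3.09 in the 4 Wt mice and 7.26, 8.72, 6.45 and 7.61 in the 4 Nrf2-null mice. Of 14 tested male-biased genes 3 were lower, beside 6.87% of all genes. Of 8 female-biased genes 4 were higher (median 2.18), beside 31.7% of all genes, and both counts held under all 3 scalings. However, 3 of those 4 (Cyp4a14, Abcd2 and Acot3) are on the PPAR list as well. With vehicle, 4 male-biased genes were lower and 5 female-biased genes higher (median 2.14), where 10.8% of all genes were called in either direction. Tcf24, a basic helix-loop-helix factor on neither list and the gene of largest rise, was 4.81, 3.87, 3.52 and 3.53 in the 4 Wt mice and 10.46, 10.67, 4.97 and 10.51 in the 4 Nrf2-null mice, and Dct, dopachrome tautomerase, was 10.54, 9.60, 9.94 and 10.03 in the 4 Wt mice and 5.38, 5.27, 8.04 and 4.89 in the 4 Nrf2-null mice. Without replicate 3 the differences were 6.61 ± 0.67 for Tcf24, -4.60 ± 0.92 for Serpina12, 4.32 ± 0.59 for Acot3, 4.14 ± 0.83 for Id1 and -4.85 ± 0.61 for Dct, each larger than with it. All mice were labelled male.

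**Figure D4:**
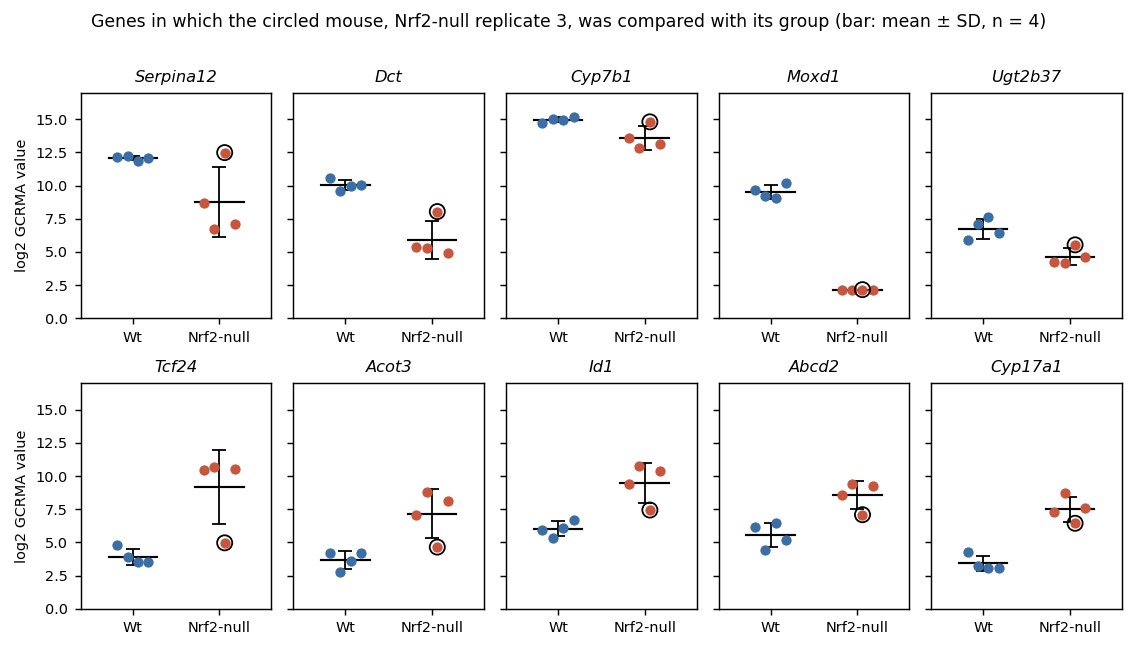
Log2 GCRMA value of 10 genes in each of the 4 Wt (blue) and 4 Nrf2-null (red) mice given 30 µmol/kg CDDO-Im, with the mean and SD of each group in black and Nrf2-null replicate 3 circled. In Serpina12 and Cyp7b1 the circled mouse lies at the level of the Wt mice, and in Tcf24 at 4.97 it lies nearer to them than to the other 3 null mice.

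Several lists lost higher calls or turned toward lower on centring, and less so on quantile normalization. Complement and coagulation held 16 higher and 3 lower of 39. After centring it held 1 and 9, with Mbl2, mannose-binding lectin (0.58 ± 0.12), still higher, and after quantile normalization 14 and 3. The proteasome held 8 higher and 1 lower of 37, after centring none and 12, and after quantile normalization 4 and 3. Psmc4, an ATPase subunit of its regulatory particle, was lower in both (-0.43 ± 0.14), but a second probe set of Psmc4 (-0.05 ± 0.13) was not called. The rises of Psmb10, Psmb3 and Psma6 (0.54 ± 0.17, 0.43 ± 0.10 and 0.37 ± 0.08) were lost on centring, as were those of C1qa and C1qc (0.88 ± 0.28 and 0.96 ± 0.38). In the cell cycle list 4 of 20 were higher and 1 lower, after centring none and 1, and after quantile normalization 1 and 1. Cyclin D1, Ccnd1, was 9.14, 9.10, 9.57 and 9.23 in the 4 Wt mice and 10.77, 10.46, 9.42 and 11.08 in the 4 Nrf2-null mice, with replicate 3 at the Wt level, and lost its call after centring or without replicate 4. Rrm1 (0.59 ± 0.17) and Cdk4 (0.45 ± 0.13) lost theirs after centring too. The ribonucleotide reductase subunit Rrm2 was lower (-1.11 ± 0.34) with values of 7.25, 9.19, 7.33 and 6.27 in Wt mice, and was not called without Wt replicate 2. Among growth factors Fst, which binds activin, was 6.91, 7.52, 5.77 and 6.84 in the 4 Wt mice and 8.85, 10.03, 9.13 and 9.50 in the 4 Nrf2-null mice, Igfals, the carrier subunit of circulating IGF, was higher by 1.17 ± 0.18 and Igfbp2 by 1.11 ± 0.28, and Egfr, the EGF receptor, was lower (-1.31 ± 0.41) on its probe set of highest mean. The glucocorticoid receptor gene Nr3c1 (0.35 ± 0.07) and Hsd11b1 (0.37 ± 0.08) were the only members called of 13 tested glucocorticoid and metallothionein genes, and neither after centring.

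The genotype was also compared at the other 4 treatments, each on 8 mice that are not among the 8 above. With vehicle 1049 genes (10.8%) were called, with D3T 889 (9.17%), at 3 µmol/kg 931 (9.60%) and at 10 µmol/kg 1413 (14.6%). The vehicle count fell to 581 without Wt vehicle replicate 3, and the D3T count to 547 without Wt D3T replicate 3. Of the 666 genes that were lower at 30 µmol/kg, 27.9% were also lower with vehicle, 24.2% with D3T, 33.8% at 3 and 29.0% at 10 µmol/kg. These were 38.6, 35.2, 47.1 and 59.8% of the genes lower at those treatments. Of the 3070 that were higher, 11.2, 7.46, 11.2 and 26.3% were also higher there, or 60.8, 53.1, 75.9 and 74.1% of the genes higher at each. Across all genes the difference at 30 µmol/kg correlated with that at the other treatments with r of 0.545, 0.457, 0.646 and 0.691 in the same order, a description over genes, which are not independent. Called lower only at 30 µmol/kg were 257 genes, and called higher only there were 1751, which does not show by itself that they differed from the other treatments.

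A core of 71 genes was called in the same direction in all 5 comparisons, 55 lower and 16 higher. After Nfe2l2, the largest mean differences belonged to 9130409I23Rik, an uncharacterized transcript, at -6.66, Ces1g at -4.01, Gstm3 at -3.98, Fitm1, which packages triglyceride into lipid droplets, at -3.78, Dct at -3.78, Gsta2 at -3.46, Nqo1 at -3.40, aldehyde oxidase Aox1 at -2.91, Gstm1 at -2.86, Abcc3 at -2.58 and Ugt2b35 at -2.18. At 30 µmol/kg 9130409I23Rik was 11.36, 10.80, 11.24 and 10.77 in the 4 Wt mice and 3.43, 5.03, 4.16 and 4.25 in the 4 Nrf2-null mice, and Fitm1 was 9.45 ± 0.20 in Wt and 5.39 ± 0.93 in null mice. Aox1 was 12.80 ± 0.07 and 9.69 ± 0.22. The largest rise of the core was Cyp4a31, with a mean of 2.08.

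**Figure D5:**
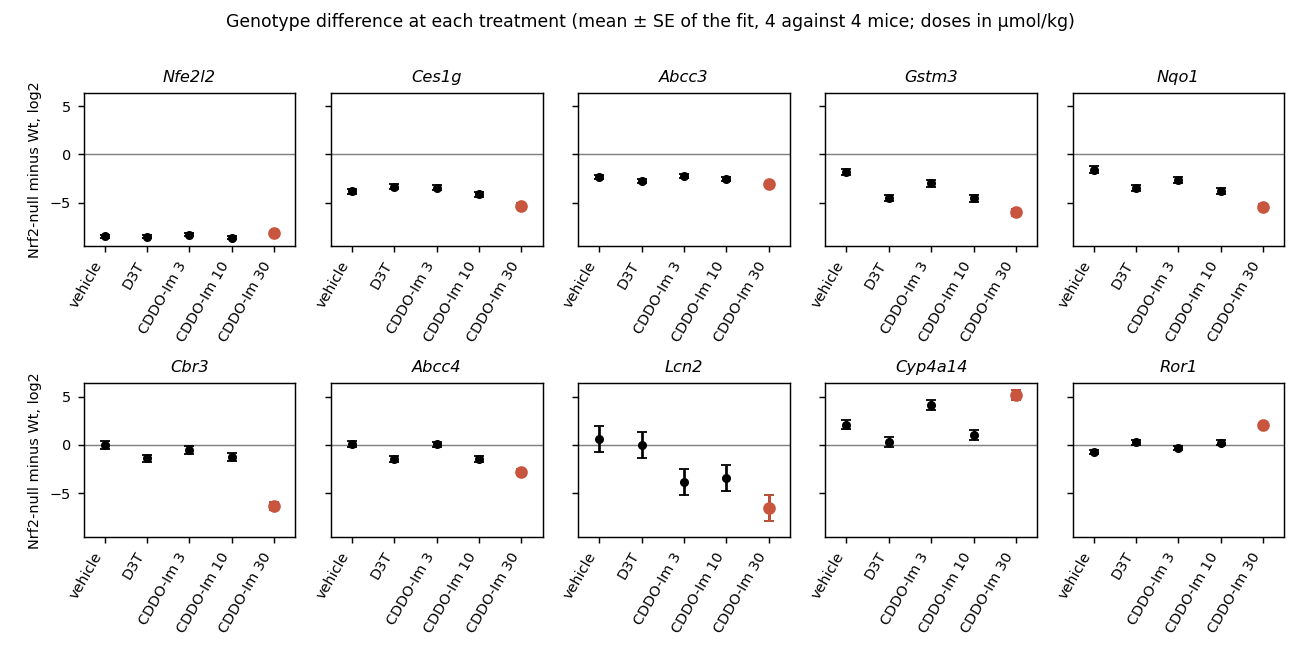
Difference between Nrf2-null and Wt liver (log2, mean and SE of the fit) at each of the 5 treatments for 10 genes, with CDDO-Im 30 µmol/kg in red and 4 against 4 mice at each point. Nfe2l2 is near -8 throughout, Ces1g and Abcc3 are low at every treatment, and Cbr3, Abcc4, Lcn2 and Ror1 leave 0 most clearly at 30 µmol/kg.

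Whether the genotype difference at 30 µmol/kg differed from that with vehicle was tested directly. It did for 1154 genes (11.9%), 981 toward higher and 173 toward lower in Nrf2-null, and after centring for 617, 298 and 319. Against D3T, whose mice carried animal numbers close to these, 1535 genes (15.8%) differed, 1286 and 249, and after centring 462 and 564. Nqo1 differed between genotypes by -1.57 with vehicle and -5.46 at 30 µmol/kg, a further -3.89 ± 0.45 (SE, adjusted p = 1.63e-06). Cbr3 differed by -0.03 with vehicle, and the difference between the 2 treatments passed the test (-6.29 ± 0.57), and the same held for Abcc4 (-2.91 ± 0.43) and Cbr1 (-1.95 ± 0.35). Abcc3 (-0.74 ± 0.31), Ugt2b35 (-0.49 ± 0.17) and Me1 (0.13 ± 0.39) did not pass this test.

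In the opposite direction, Ror1, a receptor tyrosine kinase-like protein, was 5.06, 5.41, 4.91 and 4.5 in the 4 Wt mice and 7.10, 6.67, 6.49 and 7.67 in the 4 Nrf2-null mice, and its genotype difference of -0.74 with vehicle turned to 2.02, a change of 2.76 ± 0.32. Lama3, a laminin chain, differed by 0.03 with vehicle and 2.55 at 30 µmol/kg, and Gria3, a glutamate receptor subunit read in Wt livers at the bottom of the range, by 1.18 and 3.46. Tspyl4 was 5.93, 5.54, 5.19 and 4.88 in the 4 Wt mice and 8.63, 9.33, 8.21 and 8.83 in the 4 Nrf2-null mice and moved from 1.42 to 3.37. Gm6958 (4.20), Cyp17a1 (4.09) and Vldlr, the very low density lipoprotein receptor (2.37), had large differences at 30 µmol/kg that did not pass the test against vehicle.

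Set side by side with their own vehicle mice, the Wt mice differed in 2291 genes (23.6%) and the null mice in 17 (0.175%), comparisons that share mice with the genotype contrasts above. In both genotypes the vehicle mice had animal numbers of another range, so the compound and other differences between those animals cannot be told apart. Median differences were -0.16 in Wt and 0.01 in null mice, and after centring the counts were 1181 and 34. The null count was 8 without the null mouse given 30 µmol/kg that is replicate 4 and 30 without replicate 3. It was 40, 26 and 58 without null vehicle replicates 1, 2 and 4, and 32 without null D3T replicate 4, which enters through the shared spread. Nqo1 rose by 4.09 in Wt mice against 0.20 in null mice, Cbr3 by 6.38 against 0.09 and Abcc4 by 2.83 against -0.08. Ces1g (1.13 against -0.39) started from a lower level in the null mice. Cyp4a14 fell by 3.73 in Wt mice, from 12.09 ± 1.16 to 8.36 ± 0.72, while the null mice stood at 14.18 ± 0.50 and 13.51 ± 0.18 (SD, n = 4).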

How the data were processed

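Liver RNA of 40 mice was read on Affymetrix mouse arrays, 1 array per mouse. The deposited values are log2 intensities of 45037 probe sets that the authors computed with GCRMA (per the submitters' processing notes), and they were used as deposited. No source used here gives a genome build for the array design. A probe set was kept if at least 3 of the 4 arrays of some group reached log2 4. Of the 18935 kept, 16472 had 1 gene symbol in the platform annotation, and the probe set of highest mean stood for each of 9695 genes. The 10 group means were fitted to all 40 arrays with limma 3.58.1 (R 4.3.3, lmFit and eBayes with trend and robust variances), and a gene was called at a Benjamini-Hochberg adjusted p under 0.05 over all genes of a comparison. The steps were tested on simulated data. Centring subtracted the median of each array over the kept probe sets. Errors are SD between mice or SE of the fit. Single values were tested by an exact two-sided permutation test (SciPy 1.17.1). Arrays carry no read depth, and the 4 mice per group limit the precision. The exact Wilcoxon test of the study's methods, array weights, other filters, a replicate block, a clock covariate and leaving out each mouse were alternatives, and the requirement of a call under all 3 scalings was chosen after seeing the data. The genes named are Nfe2l2 and those the study names, the 12 largest falls and 12 largest rises among called genes without overlap, the 4 called members of largest change of each gene list (or the 2 of highest mean where none was called), the 6 largest in each direction that also passed the test against vehicle, and up to 12 called in all 5 treatments. Cell markers and genes outside this rule were chosen after their values were seen. The members of this comparison and the gene lists were chosen with earlier results of these data known. Promoter windows came from RefSeq (GRCm38.p6). No source used here gives the litter or batch of the mice.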

Additional observations from a re-analysis of the deposited data

Results flagged for a closer look

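In groups of 4 mice a single mouse lay far from the other 3 in 15 of 250 groups examined over the named genes, and chance gives about 1 in 20. In Nrf2-null replicate 3 these were Tcf24 at 4.97, Dct at 8.04, Tkt at 13.35 and Elovl2 at 14.18 on the log2 scale. In Nrf2-null replicate 4 they were Cbr3 at 4.21, Abcb1b at 3.54, Psmb3 at 12.61 and Sdf2l1 at 10.22, and in Nrf2-null replicate 2 Abcc4 at 6.13 and Mylip at 8.14. In Wt replicate 1 they were Lcn2 at 10.38, Orm2 at 11.27, Cyp17a1 at 4.30 and Nr1h4 at 11.16, and in Wt replicate 2 Lss at 9.63.

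The genotype difference at 30 µmol/kg differed from that with vehicle, by the test of the difference itself (limma, adjusted p under 0.05), for 42 of the 125 named genes. Of all 9695 genes 1154 (11.9%) passed it. Some genes were named because they passed this test and others for their size at 30 µmol/kg, so the count of 42 follows in part from that choice. The difference at 30 minus that with vehicle was negative for the following detoxification genes, in log2 units. It was -3.89 for Nqo1, -6.29 for Cbr3, -1.95 for Cbr1, -1.52 for Ces1g and -0.67 for Ephx1. Among the glutathione transferases it was -4.19 for Gstm3, -2.15 for Gstm1, -1.59 for Gsta2 and -1.41 for Gstm4. For Srxn1 it was -2.07, for Txnrd1 -0.90, for Abcc4 -2.91, for Abcc2 -1.22, for Entpd5 -0.88, for Pgd -0.96 and for Blvrb -1.16. Acute phase genes gave -7.15 for Lcn2, -5.97 for Saa2, -4.34 for Orm2 and -4.20 for Saa1. Egfr gave -1.71 and Hsd17b4 -0.56.

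It was positive for Cyp4a14 (3.06), Srebf1 (1.71), Decr1 (0.70), Nr1h4 (0.65), Hsd11b1 (0.34) and Nr3c1 (0.30). Txnrd3 (1.19), Txnrd2 (0.73), Rpia (1.24), Cyp2u1 (1.41), Psmb3 (0.42), Cdk4 (0.61) and Igfals (1.29) were positive as well. So were Ighm (4.26), Cela1 (2.65), Ror1 (2.76), Id3 (2.57), Lama3 (2.52), Gria3 (2.29) and Tspyl4 (1.95).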

How the results depend on the processing

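The count of genes called between the genotypes at 30 µmol/kg ran from 2984 (without Nrf2-null replicate 4) to 3625 (without Wt replicate 1) when single mice of the 8 were left out, and reached 4023 without Nrf2-null D3T replicate 4, which enters through the shared spread. It was 1807 for genes called in 1 direction under all 3 scalings, 1553 with a minimum change of 1.5-fold, and 0 by the exact Wilcoxon test after Benjamini-Hochberg, for which the smallest adjusted p was 0.0737 and 3757 genes passed unadjusted. That Wilcoxon count after adjustment was 0 at the other 4 treatments as well, with 1784 unadjusted at 3 and 2163 at 10 µmol/kg. The smallest p of this Wilcoxon test with 4 mice against 4 is 0.0286, so a count of 0 after adjustment was nearly fixed in advance. The 3757 genes that passed unadjusted are those whose groups did not overlap. With the 1.5-fold minimum 461 genes were called with vehicle, 332 with D3T, 355 at 3 and 478 at 10 µmol/kg, 697 for the difference at 30 minus vehicle and 973 for that minus D3T. Array weights gave 1824 at 3, 2203 at 10 and 2557 for 30 minus D3T, and the clock score as a covariate gave 913 at 10 µmol/kg. The difference at 30 minus vehicle gave 617 genes after centring and 683 after quantile normalization, and 797 to 1298 when single mice of its 4 groups were left out, with 1472 without Nrf2-null D3T replicate 4. That minus D3T gave 1120 to 1743 over the mice of its own 4 groups. The cause of these changes was not tested.

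The direction reversed for Hspa8 (1.52 ± 0.52) and Egfr (0.56 ± 0.70, not called) with the probe set of largest interquartile range, in place of that of highest mean. The other Hspa8 probe sets gave -1.05, -0.73 and -1.07, all called. For Egfr the others gave -1.35, -1.31 and -1.73, called, and -0.35, not called. Of the 125 named genes 17 lost their call after centring and 6 after quantile normalization. The correlations of same-numbered mice across the genotypes were -0.0237, 0.0323, -0.141 and -0.0921, so the replicate numbers did not pair the mice. With the replicate number as a block 3704 genes were called, and no named gene changed its call. Values near the bottom of the range, such as Cbr3 and Moxd1 in null mice, give only rough sizes of a fold change.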
